A study of Mus musculus with 12 samples.

Results

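The 10 genes described here encode the MHC class II antigen presentation machinery of the mouse: the class II chains *H2-Aa*, *H2-Ab1* and *H2-Eb1*, the invariant chain *Cd74*, the peptide editor subunits *H2-DMa*, *H2-DMb1* and *H2-DMb2*, the editor's inhibitor *H2-Oa* and *H2-Ob*, and the transactivator *Ciita*. They were chosen by gene symbol from the 55471 genes of the count table, and all 10 were among the 18228 genes with enough counts to be tested. The RNA came from dendritic cells (DCs) grown with GM-CSF from the bone marrow of adult female C57BL/6 mice. A retroviral vector delivered a hairpin (shRNA) that targets either firefly luciferase, which mouse cells lack (shControl), or the co-activator gene *Ppargc1b*, which encodes PGC-1β (sh*Ppargc1b*). Cells that carried the vector were purified by its human CD8 reporter. They received either no stimulus or interferon-β (IFN-β) for 6 h. Each of the 4 groups had 3 libraries, and all 4 share the retroviral vector, the sort and the culture. The labels do not name the hairpin against *Ppargc1b* behind these libraries; the study tested a pair and relied on a single one unless it said otherwise, so the knockdown groups may rest on that one alone. Nothing says that the libraries of a group came from separate animals or cultures, so p-values measure only the spread between these libraries.

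MHC class II molecules are pairs of an α and a β chain that present peptides from endosomes to CD4+ T cells. The invariant chain fills the peptide groove until proteases trim it to a short fragment, DM then exchanges that fragment for peptide, and DO binds DM and holds it back. CIITA binds no DNA itself but assembles on the RFX, CREB and NF-Y factors at the X and Y boxes of these promoters, and its own level is known to set the level of class II transcription.

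Depth was 49919648 to 77726101 counts per library, and the 10 genes took 0.386 to 0.554% of them. *Ppargc1b* was at 33.4, 33.3 and 36.7 CPM (counts scaled to TMM-adjusted library size) in the unstimulated shControl libraries and at 18.6, 19.3 and 20.3 CPM with sh*Ppargc1b* (log2 fold change -0.83 ± 0.10 (SE), adjusted p = 3.2e-05). With IFN-β its levels were 31.4, 23.6 and 28.4 CPM against 19.6, 15.5 and 20.9 CPM (-0.57 ± 0.11, adjusted p = 9.5e-04). The DC marker *Itgax* (CD11c) was at 901 to 1182 CPM and the macrophage marker *Adgre1* (F4/80) at 140 to 180 CPM. The libraries thus held transcripts of both markers, which does not show how many kinds of cell were present. In bulk RNA, fewer cells of a type and less RNA per cell cannot be told apart.

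Class II genes other than *Cd74* and *Ciita* lie side by side on chromosome 17, and the promoters of *H2-Oa* and its partner *H2-Ob* are shown here beside those of the classical genes *H2-Aa* and *H2-Eb1*, because *H2-Oa* had the largest change of the 10 and *H2-Ob* none that passed the test. The sequences come from RefSeq on GRCm38.p6, run 5′ to 3′ along each gene's own strand, and start 150 bases before the RefSeq transcript start. Capitals mark matches to the letters of the Y box core (ATTGG, or CCAAT where it lies on the other strand) and of the X box (GNNACNGAT). The windows are chr17:34092229-34092340 (plus strand) for *H2-Oa*, chr17:34238755-34238902 (plus) for *H2-Ob*, chr17:34287824-34287973 (minus) for *H2-Aa* and chr17:34305717-34305866 (plus) for *H2-Eb1*.
H2-Oa: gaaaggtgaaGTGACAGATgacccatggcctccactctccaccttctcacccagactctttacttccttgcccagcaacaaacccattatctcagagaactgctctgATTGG
H2-Ob: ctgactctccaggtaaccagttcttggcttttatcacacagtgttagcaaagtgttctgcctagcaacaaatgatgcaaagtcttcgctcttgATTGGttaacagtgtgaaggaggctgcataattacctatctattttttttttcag
H2-Aa: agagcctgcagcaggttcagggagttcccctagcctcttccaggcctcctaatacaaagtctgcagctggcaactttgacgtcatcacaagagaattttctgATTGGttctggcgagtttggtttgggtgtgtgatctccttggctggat
H2-Eb1: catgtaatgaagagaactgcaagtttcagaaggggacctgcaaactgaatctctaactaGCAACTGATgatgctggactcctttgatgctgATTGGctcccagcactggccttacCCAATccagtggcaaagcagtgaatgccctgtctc

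A promoter was given for 7 of the 10 genes, and all 7 held the Y box core within 250 bases before a RefSeq start, where 33.8% of 32851 mouse promoters hold it on either strand. The match began 43 bases before the start in *H2-Oa*, 57 in *H2-Ob*, 48 in *H2-Aa*, 61 in *H2-DMb1*, 59 in *H2-Eb1* and 90 in *H2-DMb2*, and a match on the other strand of *H2-Eb1* lay at 35. *H2-DMa* had it 198 bases before one of its RefSeq starts and none before the other. The X box letters were found in *H2-Oa*, *H2-DMb1* and *H2-Eb1* (6.53% of all promoters), at 140, 94 and 91 bases before the start. In *H2-DMb1* and *H2-Eb1* the matches were thus close together, whereas in *H2-Oa* the X box match stood farther from the Y box match. The search took exact letters only. It would miss an X box that departs from them, and a match need not be a working box. *H2-Ab1*, *Cd74* and *Ciita* had no entry.

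Per kilobase of exon, *Cd74* was the most abundant of the 10 in every group, and the inhibitor genes were the least abundant. In unstimulated shControl cells *Cd74* was at 1242 ± 116 CPM per kb (SD, n = 3), *H2-Aa* at 274 ± 25.8, *H2-Ab1* at 234 ± 21 and *H2-Eb1* at 144 ± 15.8. The editor genes followed at 40.8 ± 3.90 for *H2-DMb1*, 32.7 ± 2.31 for *H2-DMa* and 15.2 ± 1.46 for *H2-DMb2*. *Ciita* was at 11.8 ± 0.998, *H2-Oa* at 4.10 ± 0.132 and *H2-Ob* at 1.30 ± 0.304 CPM per kb. Of neighbours in this order, *H2-Aa* and *H2-Ab1* differed by less than the sum of their SDs, and all others by more. For *H2-Ea*, the α partner of *H2-Eb1*, the libraries held 0 to 9 counts, too few for a test, and C57BL/6 mice are known to carry a deletion at its promoter.

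**Figure D1:**
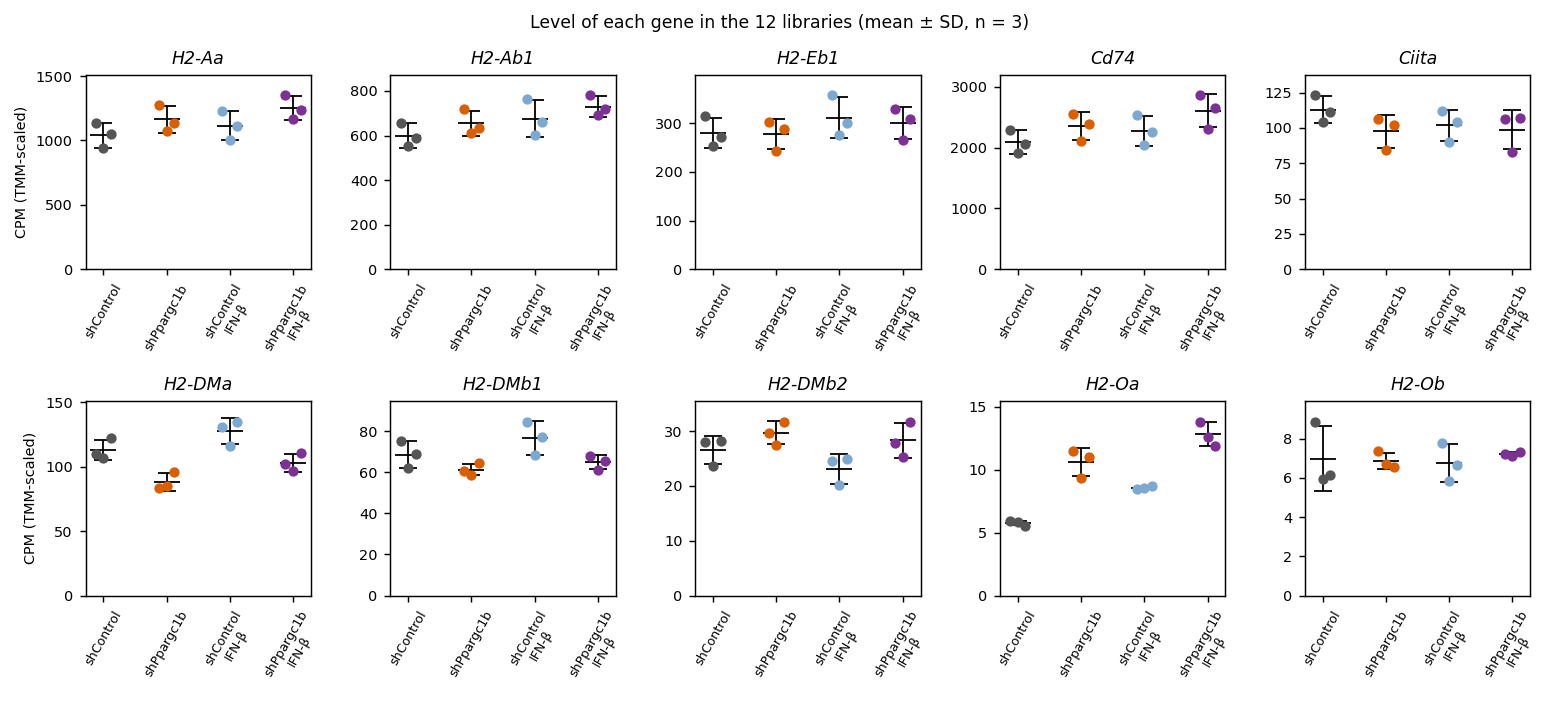
Level of each gene in CPM (vertical axis, from 0) in the 12 libraries, by group; points are libraries and bars are the mean ± SD of 3. *H2-Oa* stands higher in every sh*Ppargc1b* library than in any shControl library of the same treatment, and *H2-DMa* lower, while the points of *H2-Aa*, *H2-Ab1*, *H2-Eb1*, *Cd74*, *Ciita* and *H2-Ob* overlap.

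The first question was how the class II genes differed between sh*Ppargc1b* and shControl cells. In unstimulated cells *H2-Oa*, the α chain of the inhibitor DO, rose 1.84-fold, and *H2-DMa*, the α chain of the editor DM, fell to 0.782 of its level. The other 8 genes did not pass the test in the main fit, and some of them passed under processing alternatives given below. With IFN-β *H2-Oa* rose 1.49-fold, *H2-DMb2* rose 1.22-fold, *H2-DMa* fell to 0.808 and *H2-DMb1* fell to 0.847 of the shControl level. The 10 genes thus had 1 higher and 1 lower call without IFN-β, where 12.4% and 11.1% of all genes tested were called higher and lower, and 2 and 2 with IFN-β, where the shares were 11.5% and 12.7%. Their median log2 fold change was 0.06 without and 0.11 with IFN-β, against a median of all genes of -0.00 and -0.01.

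*H2-Oa* (ENSMUSG00000024334, chr17:34092340-34095234, plus strand, GRCm38) was at 5.88, 5.86 and 5.55 CPM in unstimulated shControl cells and at 11.5, 9.36 and 11 CPM with sh*Ppargc1b*. Every sh*Ppargc1b* library was above every shControl library. The log2 fold change was 0.88 ± 0.09 (95% interval 0.69 to 1.06, adjusted p = 3.5e-06). With IFN-β it was at 8.47, 8.51 and 8.67 CPM against 13.8, 12.6 and 11.9 CPM, again with no overlap (0.58 ± 0.09, interval 0.40 to 0.76, adjusted p = 1.5e-04). Both calls held under all 18 alternatives, with log2 fold changes of 0.82 to 0.96 without and 0.51 to 0.61 with IFN-β. The gene rested on 313 to 794 counts per library. It shares 321 bases of exon with the antisense gene *BC051537*, which had 312 counts over all libraries beside 6587 for *H2-Oa*, and whether the counting used strand was not stated.

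*H2-Ob*, the β chain that pairs with *H2-Oa*, was at 8.87, 5.93 and 6.15 CPM in unstimulated shControl cells and at 7.35, 6.71 and 6.54 CPM with sh*Ppargc1b*. The shControl libraries spanned the others, the first of them being the highest of all 12. The log2 fold change was -0.02 (interval -0.32 to 0.27) without and 0.10 (-0.20 to 0.39) with IFN-β, where the levels were 7.78, 5.86 and 6.64 against 7.22, 7.13 and 7.33 CPM. The ratio of *H2-Oa* to *H2-Ob* per kb was 2.53, 3.78 and 3.45 against 5.97, 5.33 and 6.41 in unstimulated cells, and 4.16, 5.55 and 4.99 against 7.29, 6.75 and 6.22 with IFN-β. Every sh*Ppargc1b* library had a higher ratio than any shControl library of the same treatment.

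DO is a protein best known from B cells. The tested B cell markers held 17.4 to 26.2 CPM in sum over 6 genes, of which *Cd22*, also expressed by other leukocytes, was most. *Cd79a* had 1 to 14, *Ms4a1* 4 to 15 and *Pax5* 7 to 17 counts per library, and none of the 6 tested markers passed in either knockdown comparison. Of 5 T and NK cell markers none had enough counts to test. In the knockdown comparisons dendritic cell markers rose beside *H2-Oa*: 4 of 6 tested without and 5 of 6 with IFN-β. Among them were *Ccr7* (1.32 ± 0.07 and 1.36 ± 0.07, adjusted p = 1.2e-08 in both), which marks migrating mature DCs, *Zbtb46* (0.61 and 0.65) and *Itgax* (0.26 and 0.20). With IFN-β in shControl cells, where *H2-Oa* rose as well, 2 of 6 did. The summed level of the dendritic cell markers, of which *Itgax* was most, was 994 to 1110 CPM in unstimulated shControl and 1300 to 1340 CPM in sh*Ppargc1b* cells, and 1090 to 1220 against 1430 to 1450 CPM with IFN-β. Macrophage markers summed to 2410 to 2560 against 2390 to 2450 CPM, and to 3150 to 3370 against 2930 to 3040 CPM with IFN-β, and *Mertk* fell in both (-0.40 and -0.27). Of 4 plasmacytoid DC markers 2 had enough counts to test, and of these *Tcf4* rose in unstimulated cells (0.56) and neither passed with IFN-β, while the defining marker *Siglech* had 0 to 4 counts per library. In each treatment 1 of 6 neutrophil markers rose, *S100a8* (0.83 and 0.88), a call that 4 of 18 alternatives lost in each, and 1 of 5 mast cell and basophil markers, *Kit* (0.93 and 0.78). The neutrophil markers summed to 40.8 to 95.1 against 89.6 to 158 CPM, and to 38.6 to 100 against 86.4 to 164 CPM with IFN-β. Their median log2 fold changes were 0.74 and 0.69, beside 0.43 and 0.53 for the dendritic cell markers. The call of *Itgax* with IFN-β was lost without shControl IFN-β replicate 2 (adjusted p = 0.0636) or 3 (0.0799). That of *Dpp4* with IFN-β (0.42) was lost under 3 of 18 alternatives, and that of *Flt3* without IFN-β (0.57) under 6. The part of these markers in the change of *H2-Oa* and of the DM genes was not tested.

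*H2-DMa* (ENSMUSG00000037649, chr17:34119541-34139101, plus strand) was at 110, 107 and 122 CPM in unstimulated shControl cells and at 83.3, 85.4 and 96.2 CPM with sh*Ppargc1b*. The IFN-β libraries were at 131, 116 and 135 against 102, 97.0 and 111 CPM. In both treatments every sh*Ppargc1b* library was below every shControl library. The log2 fold changes were -0.35 ± 0.07 (adjusted p = 0.00181) and -0.31 ± 0.07 (adjusted p = 0.00505), and both calls held under all 18 alternatives. The gene shares 360 bases of exon with *Brd2* on the opposite strand, whose log2 fold changes were -0.00 and -0.02.

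The β chain of DM has a pair of gene copies in the mouse, and they went opposite ways. *H2-DMb1* was at 75.0, 61.9 and 69.0 CPM against 60.6, 58.9 and 64.3 CPM in unstimulated cells, which overlapped (-0.16 ± 0.08, interval -0.33 to 0.00, adjusted p = 0.149). With IFN-β it was at 84.6, 68.2 and 77.0 against 67.8, 61.1 and 65.6 CPM, with no overlap (-0.24 ± 0.08, adjusted p = 0.0333). *H2-DMb2* was at 28, 23.6 and 28.1 against 29.7, 27.5 and 31.7 CPM in unstimulated cells (0.16 ± 0.10, interval -0.05 to 0.37, adjusted p = 0.279), where only 1 sh*Ppargc1b* library lay within the shControl range. With IFN-β it was at 24.5, 20.1 and 24.9 against 27.9, 25.2 and 31.6 CPM, with no overlap (0.29 ± 0.10, adjusted p = 0.0457). Of 18 alternatives, 10 lost the call of *H2-DMb1*, among them leaving out any of 8 libraries (highest adjusted p = 0.136, without shControl IFN-β replicate 1). For *H2-DMb2* 5 lost it, which were leaving out any shControl IFN-β library or sh*Ppargc1b* IFN-β replicate 1 or 3 (highest adjusted p = 0.243, without the last).

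The ratio between the copies, taken within each library, was higher with sh*Ppargc1b* in both treatments. *H2-DMb2* had 0.373, 0.382 and 0.407 counts per count of *H2-DMb1* in unstimulated shControl cells and 0.490, 0.468 and 0.493 with sh*Ppargc1b*. With IFN-β the ratios were 0.289, 0.294 and 0.323 against 0.412, 0.412 and 0.482. The hairpin groups did not overlap in either treatment, and the IFN-β libraries of shControl lay below all unstimulated ones. The copies share 11.3% of the 100-base stretches of *H2-DMb1* and 10.3% of those of *H2-DMb2*, where a read cannot be assigned to one of them, so their separate levels are uncertain to that extent.

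DM was summed over its α and β genes per kb and divided by DO in the same way. The ratio was 15.9, 15.4 and 18.2 in unstimulated shControl libraries and 8.11, 9.56 and 9.36 with sh*Ppargc1b*, or 16.5 ± 1.47 against 9.01 ± 0.785 (SD, n = 3). With IFN-β it was 13.7, 12 and 13.4 against 7.71, 7.69 and 9.08, or 13.1 ± 0.911 against 8.16 ± 0.796. All 6 sh*Ppargc1b* libraries were below all 6 shControl libraries. The ratio combines the genes already described and was given no test of its own, and it compares transcripts, not proteins. In the sum for DO *H2-Oa* was the larger part, at 4.10 CPM per kb in unstimulated shControl cells against 1.30 for *H2-Ob*. *H2-Ob* was at 1.28 CPM per kb in unstimulated sh*Ppargc1b* cells and did not pass. DO needs both chains, so the ratio does not give the amount of DO pairs.

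**Figure D2:**
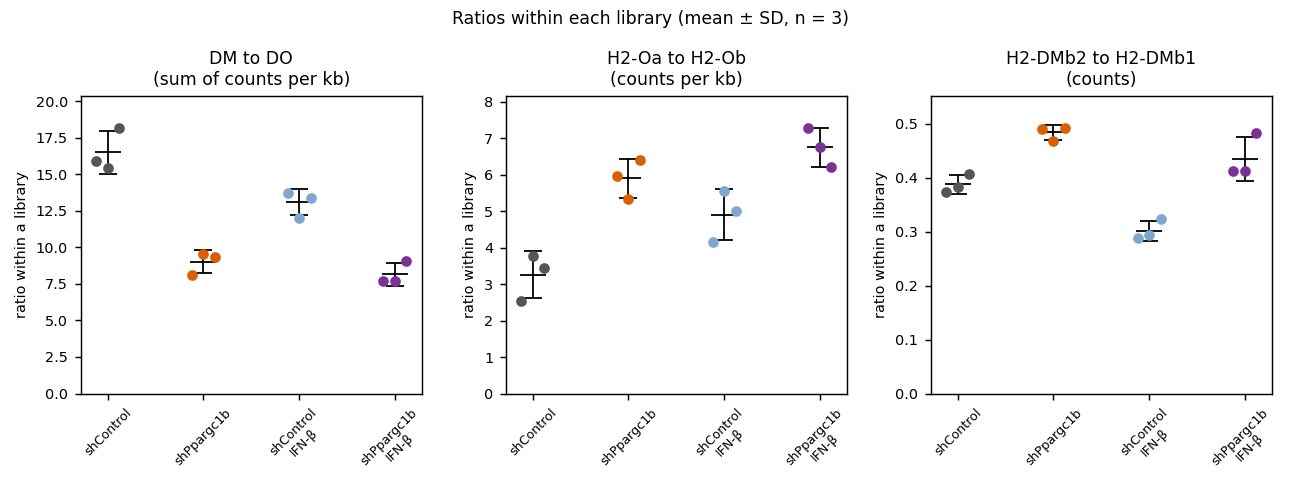
Ratio within each library (vertical axis, no unit, from 0) of DM to DO per kb, of *H2-Oa* to *H2-Ob* per kb, and of *H2-DMb2* to *H2-DMb1* counts, by group; points are libraries and bars are the mean ± SD of 3. DM to DO is lower in every sh*Ppargc1b* library than in any shControl library, and the other ratios are higher within each treatment.

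The genes that make the bulk of class II transcript differed less. *Cd74*, the invariant chain, was at 2290, 1905 and 2062 CPM in unstimulated shControl cells and at 2558, 2112 and 2384 CPM with sh*Ppargc1b*, and with IFN-β at 2530, 2042 and 2251 against 2856, 2311 and 2650 CPM. The lowest sh*Ppargc1b* library lay within the shControl range in both treatments. Its log2 fold changes were 0.17 (interval -0.03 to 0.37, adjusted p = 0.215) and 0.20 (-0.00 to 0.40, adjusted p = 0.152). The α chain *H2-Aa* was at 1133, 938 and 1051 against 1279, 1075 and 1139 CPM, and at 1232, 1002 and 1113 against 1350, 1169 and 1238 CPM with IFN-β. Its log2 fold changes were 0.16 (-0.02 to 0.34) and 0.17 (-0.01 to 0.35). The β chain *H2-Ab1* was at 658, 552 and 591 against 719, 611 and 635 CPM, and at 763, 602 and 662 against 780, 691 and 718 CPM with IFN-β (0.13, interval -0.06 to 0.31, and 0.11, -0.07 to 0.29). For these 3 genes the intervals ran from -0.07 to 0.40 at their widest.

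*H2-Eb1*, the β chain whose α partner was near 0, was at 314, 253 and 272 against 303, 243 and 287 CPM in unstimulated cells, and at 357, 275 and 301 against 329, 265 and 309 CPM with IFN-β. The groups overlapped almost fully, and the log2 fold changes were -0.01 (-0.24 to 0.21) and -0.05 (-0.27 to 0.18). *Ciita* (ENSMUSG00000022504, chr16:10480059-10528418, plus strand) was at 123, 104 and 111 CPM in unstimulated shControl cells and at 106, 84.3 and 102 CPM with sh*Ppargc1b*. With IFN-β it was at 112, 90.1 and 104 against 106, 82.6 and 107 CPM. The log2 fold changes were -0.21 (-0.43 to 0.02, adjusted p = 0.185) and -0.05 (-0.28 to 0.18, adjusted p = 0.789), with overlap in both. With every gene kept that had at least 1 count, *Ciita* passed as lower in unstimulated cells (-0.19, adjusted p = 0.00551), and *Cd74* (0.19 and 0.21) and *H2-Aa* (0.18 and 0.18) passed as higher in both treatments, with *H2-Ab1* in unstimulated cells (0.15). These calls were also made with a term for the run of library codes, as given under the processing alternatives.

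**Figure D3:**
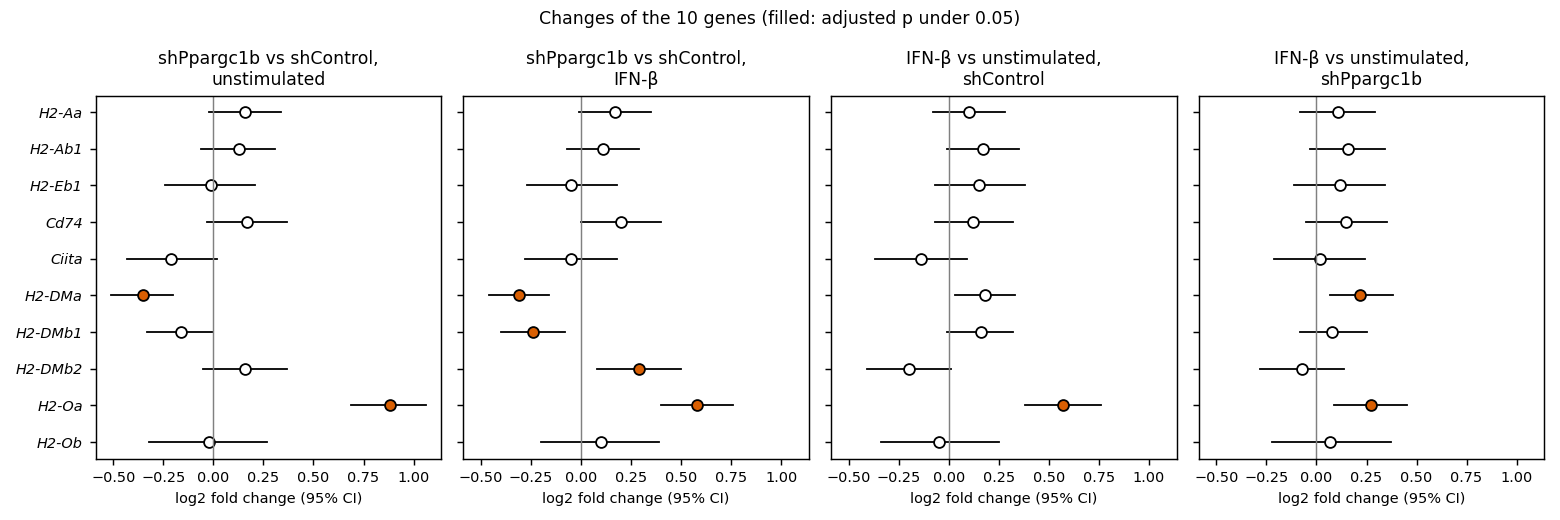
Log2 fold change (horizontal axis) of the 10 genes in the 4 comparisons; points are estimates, lines 95% intervals, and filled points have an adjusted p under 0.05. *H2-Oa* is filled in all 4 panels, *H2-DMa* in 3, and the intervals of *H2-Aa*, *H2-Ab1*, *H2-Eb1*, *Cd74*, *Ciita* and *H2-Ob* all reach 0.

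By overlap alone, the libraries of the hairpin groups were apart for 2 of the 10 genes without IFN-β and for 4 with it, where 36.8% and 38.7% of all genes tested were apart. Part of the spread was common to the genes. In every group replicate 1 was the highest library for 6 to 8 of the 10 genes and replicate 2 the lowest for 8 or 9 of them, and a gene's highest library was 1.02 to 1.5 times its lowest. Replicate numbers follow the record order, and replicate 1 of each group came from the same run of neighbouring library codes, as did replicate 2. The labels do not say what a run of codes stands for. *H2-DMa* and *H2-DMb2* departed from this order and were highest in replicate 3 of every group.

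**Figure D4:**
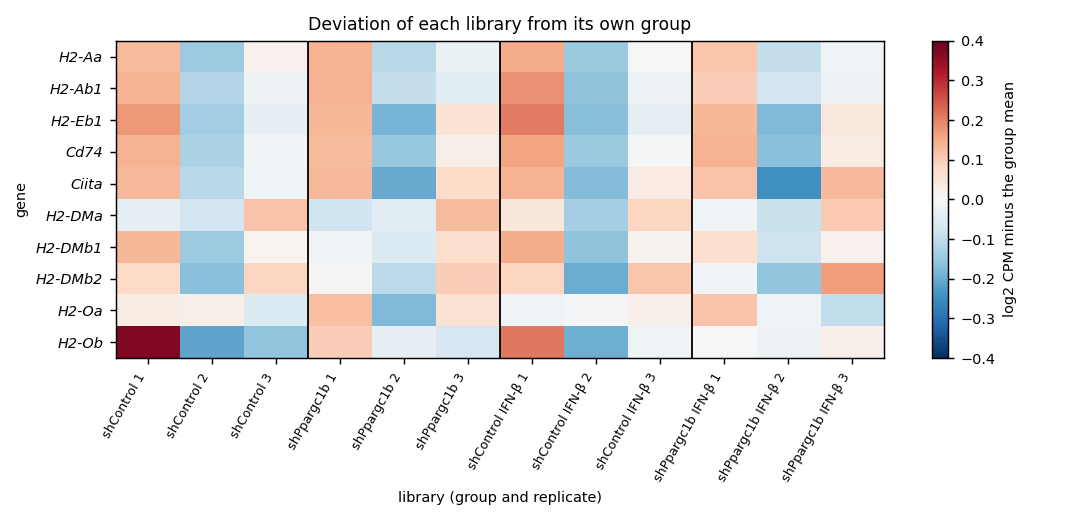
Deviation of each library from the mean of its own group (colour, log2 CPM) for the 10 genes (rows) in the 12 libraries (columns, by group and replicate). Replicate 1 is mostly red and replicate 2 mostly blue in all 4 groups, while *H2-DMa* and *H2-DMb2* are highest in replicate 3.

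The next question was what IFN-β did to these genes. In shControl cells *H2-Oa* rose 1.48-fold (log2 0.57 ± 0.09, adjusted p = 6.5e-05), the only call among the 10 in this fit, where 23.7% of all genes were called higher and 24.6% lower. All 3 IFN-β libraries were above all 3 unstimulated ones, and no other of the 10 genes was apart in this way, against 56.7% of all genes. The count of calls was 8 with every gene of at least 1 count, 9 with a term for the run of library codes and 4 without shControl IFN-β replicate 2. In the same order 8426, 9356 and 7867 of all genes were called, against 8793 in the main fit. In sh*Ppargc1b* cells *H2-Oa* rose by 0.27 ± 0.08 (adjusted p = 0.0172) and *H2-DMa* by 0.22 ± 0.07 (adjusted p = 0.0195), with the other 8 not past the test, where 21.4% and 21.2% of all genes were called higher and lower. The libraries were apart for these 2 genes, against 50.1% of all genes. These comparisons use the same libraries as the knockdown comparisons and are not independent of them.

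The classical genes showed small values after IFN-β that did not pass in this fit. In shControl cells *H2-Ab1* was 0.17 (interval -0.01 to 0.35) above its unstimulated level on the log2 scale, *H2-Eb1* 0.15 (-0.07 to 0.38), *Cd74* 0.12 (-0.07 to 0.32) and *H2-Aa* 0.10 (-0.08 to 0.28). With a term for the run of library codes all 4 passed at the same values, each higher in 3 of 3 runs (adjusted p = 6.9e-04, 0.00373, 0.00399 and 0.0176). *Ciita* was at -0.14 (-0.37 to 0.09) in shControl and 0.02 (-0.21 to 0.24) in sh*Ppargc1b* cells. *H2-DMb2* was at -0.20 (-0.41 to 0.01) and -0.07 (-0.28 to 0.14), and *H2-DMa* missed the threshold in shControl cells (0.18, adjusted p = 0.0518) but passed it under 10 of 18 alternatives. With the term for the run of library codes *Ciita* and *H2-DMb2* passed as lower in shControl cells (adjusted p = 0.0116 and 0.00417), each in 3 of 3 runs. They also did so with every gene of at least 1 count (0.0263 and 0.0206).

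These directions depended on the scaling. TMM raised the unstimulated and lowered the IFN-β library sizes, and with plain library totals the median of all genes moved to -0.27 in shControl and -0.22 in sh*Ppargc1b* cells. With totals *H2-Aa*, *H2-Ab1*, *H2-Eb1*, *Cd74*, *H2-DMb1* and *H2-DMa* had values of -0.14 to -0.06 in shControl cells, and *Ciita* (-0.38, adjusted p = 0.00771) and *H2-DMb2* (-0.44, adjusted p = 0.00156) passed as lower. Relative to the shifted median, *Ciita* was then at -0.11 and *H2-Aa* at 0.14. *H2-Oa* in shControl cells stayed higher with totals (0.33, adjusted p = 0.00542), whereas in sh*Ppargc1b* cells the calls of *H2-Oa* (0.07, adjusted p = 0.552) and *H2-DMa* (0.02, adjusted p = 0.842) were lost. The *H2-Oa* call in sh*Ppargc1b* cells was also lost without sh*Ppargc1b* IFN-β replicate 1 (adjusted p = 0.0802) and without unstimulated replicate 2 (0.0859), and with every gene of at least 1 count (0.0655), and that of *H2-DMa* without unstimulated replicate 1 (0.0740) or 2 (0.0644) or IFN-β replicate 3 (0.0977).

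The knockdown effect was then compared between the treatments by the interaction term. None of the 10 genes passed with edgeR, where 0.73% of all genes were called, nor did any with DESeq2, and 1 had an unadjusted p below 0.05. That was *H2-Oa*, whose rise with sh*Ppargc1b* was smaller with IFN-β by 0.30 on the log2 scale (-0.30 ± 0.12, adjusted p = 0.386). The intervals of the other 9 differences all held 0, and their bounds lay between -0.35 (*H2-Eb1*) and 0.54 (*H2-Ob*).

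Genes that neighbour the class II genes behaved otherwise with IFN-β. In the list of 7 other genes of the region, 5 of 6 tested rose in both hairpin groups, where the median log2 fold change was 1.58 for shControl and 1.26 for sh*Ppargc1b*, beside 0.14 and 0.11 for the 10 class II genes. *Tap1* and *Tap2*, the transporter that feeds peptides to class I molecules, rose by 2.14 and 1.74 in shControl cells, and the immunoproteasome subunits *Psmb9* and *Psmb8* by 1.98 and 1.43. *Tap1* went from 66.0, 72.8 and 64.5 to 298, 292 and 305 CPM, with no library in between. *Brd2*, which shares 360 bases of exon with *H2-DMa* on the opposite strand, rose by 0.59. The strand setting of the counting is not stated, and whether reads of *Brd2* add to the IFN-β values of *H2-DMa* was not tested. *H2-Eb2*, with 96 to 182 counts per library, did not pass in any comparison.

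**Figure D5:**
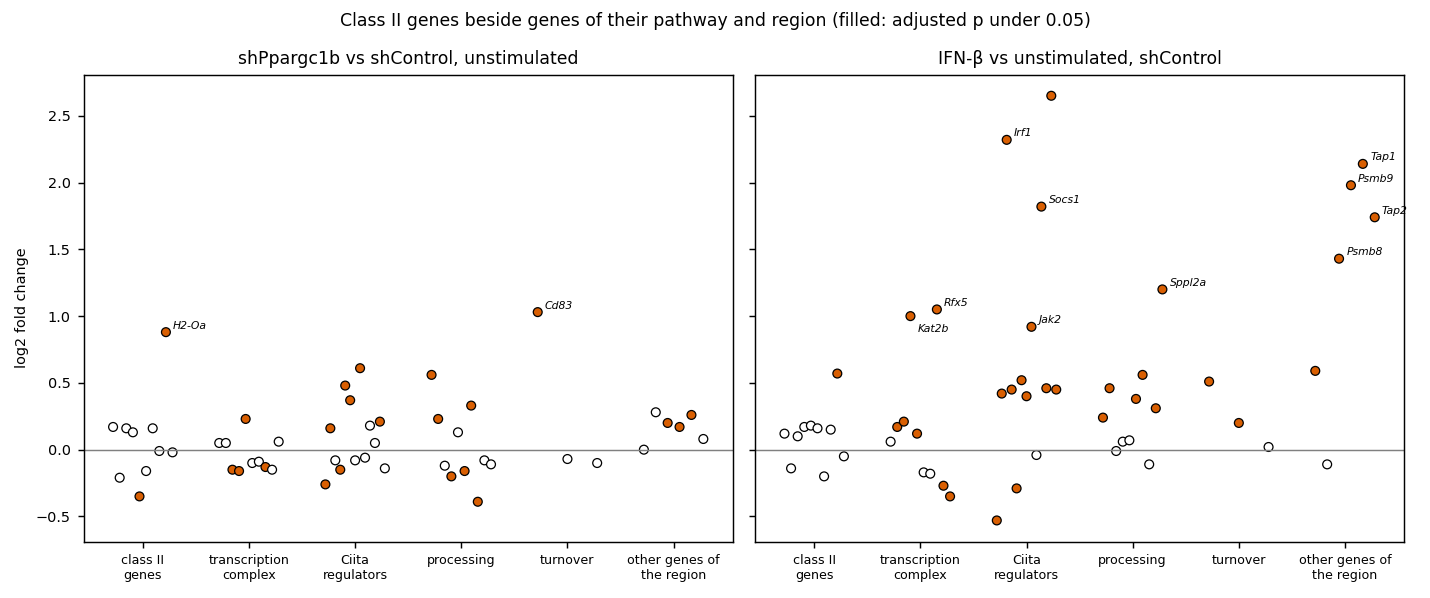
Log2 fold change (vertical axis) of the 10 class II genes and of 5 lists of related genes, for the knockdown in unstimulated cells (left) and for IFN-β in shControl cells (right); each point is a gene, filled where adjusted p was under 0.05. With IFN-β *Irf1* and *Tap1* stand above 2 on the right, while the class II genes lie between -0.20 and 0.57.

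The factors that act on *Ciita* and on class II promoters were read from lists of 13 and 10 genes. Of the 13 regulators of *Ciita*, 10 rose and 2 fell with IFN-β in shControl cells, and 10 rose and 1 fell in sh*Ppargc1b* cells. *Irf1*, a factor at the interferon-responsive *Ciita* promoter, rose by 2.32 ± 0.04 and 2.06 ± 0.04, and *Socs1*, which restrains the receptors, by 1.82 and 1.49. *Irf1* went from 46.1, 46.9 and 44.9 to 222, 232 and 233 CPM in shControl cells, while *Ciita* in the same libraries went from 123, 104 and 111 to 112, 90.1 and 104 CPM. With the knockdown 5 of the 13 rose and 2 fell without IFN-β, and 3 rose and 3 fell with it. The myeloid and lymphoid factors *Irf4* (0.48 ± 0.06 and 0.66 ± 0.06) and *Irf8* (0.37 ± 0.06 and 0.53 ± 0.06) rose in both treatments, and the kinase *Jak2* rose by 0.61 and 0.24. The genes that fell were *Irf2* in both treatments (-0.15 and -0.26), the receptor chain *Ifngr1* without IFN-β (-0.26), and *Irf1* (-0.34) and *Usf1* (-0.24) with it. *Irf1* was at -0.08 (adjusted p = 0.191) without IFN-β. The call of *Irf2* without IFN-β was lost without shControl unstimulated replicate 1 (adjusted p = 0.0519) and with every gene of at least 1 count (0.0994).

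Of the 10 genes of the class II transcription complex, 5 rose and 2 fell with IFN-β in shControl cells, and 4 rose and 1 fell in sh*Ppargc1b* cells. *Rfx5*, the RFX subunit that binds the X box, rose by 1.05 ± 0.04 and 0.88 ± 0.04, from 29.1, 28.4 and 28.1 to 57.9, 59.6 and 59.4 CPM in shControl cells. The acetyltransferase *Kat2b* rose by 1.0 and 0.91, and the RFX subunit *Rfxap* fell (-0.35 and -0.42). With the knockdown, 1 gene rose and 3 fell in each treatment: *Nfya*, a subunit of the Y box factor, rose by 0.23 and 0.18, and *Rfx5* (-0.13 and -0.29, adjusted p = 0.0436 and 1.2e-04), *Kat2b* (-0.16 and -0.25, adjusted p = 0.0127 and 4.1e-04) and *Ep300* (-0.15 and -0.14, adjusted p = 0.00575 and 0.00987) fell. The call of *Rfx5* without IFN-β was lost under 12 of 18 alternatives, among them DESeq2 (adjusted p = 0.0538) and leaving out any of 9 libraries, with a highest adjusted p of 0.46 with every gene of at least 1 count. That setting also lost both calls of *Ep300* (0.0715 and 0.0818) and the call of *Kat2b* without IFN-β (0.0985), which was lost without sh*Ppargc1b* unstimulated replicate 3 as well (0.0794).

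Among 10 genes that trim the invariant chain or prepare antigen, the knockdown raised 3 and lowered 3 in unstimulated cells, and raised 2 and lowered 4 with IFN-β. *Cst3*, the inhibitor cystatin C, rose by 0.56 ± 0.06 and 0.65 ± 0.06, and *Ctsz*, a cathepsin, by 0.33 and 0.23. *Ctss*, the protease that makes the last cuts in the invariant chain in DCs, fell (-0.16 and -0.19, of which the first was lost under 4 of 18 alternatives, and most by leaving out sh*Ppargc1b* unstimulated replicate 3, adjusted p = 0.128), as did the thiol reductase *Ifi30* (-0.39 and -0.28). *Sppl2a*, which clears the remaining membrane stub, was at -0.11 (adjusted p = 0.0726) without and fell with IFN-β (-0.36). IFN-β raised 6 of the 10 in both hairpin groups, *Sppl2a* by 1.20 and 0.95 and *Ctss* by 0.38 and 0.35.

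Turnover of class II at the surface is set by the ubiquitin ligase MARCH1 (*Marchf1*), which removes it, and by CD83 (*Cd83*), which opposes MARCH1. *Cd83* was at 26.9, 23.7 and 26.3 CPM in unstimulated shControl cells and at 58.4, 47.4 and 51.5 CPM with sh*Ppargc1b*, and with IFN-β at 37.3, 35.0 and 36.7 against 83.2, 61.9 and 79.2 CPM. It rose by 1.03 ± 0.10 and 1.04 ± 0.10 (adjusted p = 2.3e-06 and 2.4e-06), with no overlap. *Marchf1* was at -0.07 (adjusted p = 0.378) without IFN-β and fell with it (-0.30, adjusted p = 6.4e-04). The related ligase *Marchf8* did not pass (-0.10 and -0.13).

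The 4 group means of each gene, as log2 CPM centred on their own mean, were compared with those of *Ciita* and *Cd74* over 8772 genes of at least 3 mean log2 CPM. The patterns nearest to *Ciita*, by root mean square difference, were *Trio* (0.0105), *Pik3c3* (0.0157), *Pan2* (0.0165), *Osbpl11* (0.0173) and *Rpain* (0.0185). The nearest to *Cd74* were *Zbtb18* (0.00258), *Etf1* (0.0122), *Gnai3* (0.0132), *Prkcsh* (0.0133) and *Ciapin1* (0.0143). *H2-Aa* came 10th (0.0191) and *H2-Ab1* 73rd (0.0356) from *Cd74*, *Ciita* came 4149th (0.190), and from *Ciita* the nearest class II gene was *H2-DMb1*, at place 2482 (0.114). With 4 means per gene and differences this small, many genes lie near any pattern.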

How the data were processed

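The authors depleted ribosomal RNA, trimmed adapters and mapped read pairs to mm10 (GRCm38), and they deposited unnormalized counts for each GENCODE gene, which STAR's GeneCounts mode writes. Per the submitters' processing notes, Trim Galore 0.6.0 and STAR 2.7.8a were used. Whether the counting used strand is not given in the sources used here. All 12 columns of the deposited counts were used, in 4 groups of 3 taken from the labels.

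The analysis followed the study's methods and used edgeR 4.0.16 (R 4.3.3). Of all genes, filterByExpr (minimum count 10, minimum total 15) kept 18228, which held 99.96% of the counts. Scaling was by TMM, and a single quasi-likelihood model took a mean for each group over all 12 libraries. Each contrast had a quasi-likelihood F-test with Benjamini-Hochberg adjustment over all genes tested and a threshold of 0.05, and every adjusted p comes from this test unless another is named. DESeq2 1.42.0, other scalings and filters, a term for runs of library codes and leaving out each library were the alternatives. Levels are TMM-scaled CPM, errors of levels are SD and errors of fold changes SE, and levels per kb divide by exon length in GENCODE M21. The fit was tested on simulated data. No replicate libraries agreed within counting noise, which does not show that they came from separate cultures.

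The 10 genes and the 12 lists were chosen with earlier results of these data known. Named were all 10, the targeted gene, of each list up to 4 genes with the largest fold change past the threshold in each comparison, every gene of class II turnover, the markers *Itgax* and *Adgre1*, and the 5 genes nearest to *Ciita* and to *Cd74*. *H2-Ea*, *H2-Eb2*, *Brd2*, *BC051537*, *Usf1*, *Siglech* and the levels of further B cell markers were added after their values were seen. Some listed items are not reported here.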

Additional observations from a re-analysis of the deposited data

Results flagged for a closer look

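The knockdown effect differed between the treatments, by the interaction term of the edgeR fit, for 5 of the listed genes and for none of the 10 class II genes. *Jak2* had an interaction of -0.37 (adjusted p = 0.0205), with knockdown effects of 0.61 without and 0.24 with IFN-β. *Psmb8* had -0.36 (adjusted p = 0.0097, effects 0.20 and -0.16), *Psmb9* -0.31 (adjusted p = 0.0359, effects 0.17 and -0.14) and *Tap1* -0.38 (adjusted p = 0.0263, effects 0.26 and -0.12, of which the second did not pass). The knockdown calls of *Psmb9* were lost under 3 of 18 alternatives without and 9 with IFN-β (highest adjusted p = 0.0677 and 0.162), and that of *Psmb8* with IFN-β under 1. *Tcf4* had -0.49 (adjusted p = 0.0438), with effects of 0.56 and 0.07, of which the second did not pass. Under the 17 alternatives the highest adjusted p was 0.0869 for *Jak2*, 0.0506 for *Psmb8*, 0.145 for *Psmb9*, 0.127 for *Tap1* and 0.127 for *Tcf4*, and the calls were lost under 4, 1, 10, 8 and 10 of them. Each highest value came without shControl unstimulated replicate 3. Library totals lost all but that of *Psmb8*. All values are log2 fold changes. Groups of 3 libraries were too small for a test of single outlying libraries.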

How the results depend on the processing

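Among the 10 genes and all comparisons, 816 values under an alternative kept their side of the threshold, 51 passed it newly, 23 no longer passed, and no call reversed. Some values that passed in neither fit changed sign, as with library totals after IFN-β. The causes were not tested.

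With a term for each of the 3 runs of library codes, a replicate block in which each run holds 1 library of every group, 8, 7, 9, 6 and 0 of the 10 genes were called (the knockdown without and with IFN-β, then IFN-β for shControl and sh*Ppargc1b*, then the interaction), where 27.7%, 28.4%, 51.3%, 46.0% and 2.33% of all genes were, and the interaction called 425 genes against 133. *Cd74* (0.17 and 0.20), *H2-Aa* (0.16 and 0.17) and *H2-Ab1* (0.13 and 0.12) were then higher with the knockdown in both treatments, each in 3 of 3 runs, and *Ciita* lower without IFN-β (-0.21, adjusted p = 0.00163). Also called without IFN-β were *H2-DMb1* as lower (-0.16, adjusted p = 0.0214) and *H2-DMb2* as higher (0.16, adjusted p = 0.029), each in 3 of 3 runs. The 9 with IFN-β in shControl cells were all but *H2-Ob*. Over all genes tested, libraries of the same run in different groups deviated together weakly (correlation 0.0276 to 0.146 over 18 pairs, against -0.154 to 0.0565 for other runs). For some of the 10 genes the runs held much of the spread. In the unstimulated knockdown the block lowered the SE of *Cd74* from 0.09 to 0.03 and of *H2-Aa* from 0.08 to 0.03. The labels do not say that a run was a shared culture, so the block was not taken as the main design.

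With every gene of at least 1 count, 6 of the 10 were called in the unstimulated knockdown and 8 with IFN-β in shControl cells. Over all genes that setting called 4208 and 8426. With IFN-β in shControl cells the count was 3 with library totals and 2 with DESeq2 size factors, DESeq2 or only the groups compared. In sh*Ppargc1b* cells it was 1 with library totals, a new call of *H2-DMb2* as lower (-0.27, adjusted p = 0.0308). Library totals called 10892 of all genes in shControl and 9891 in sh*Ppargc1b* cells, and the other settings named called 8705 to 8771 in shControl cells. The interaction called 84 genes with library totals, 525 with every gene of at least 1 count and 452 with DESeq2. Leaving out 1 library gave 2 to 2, 2 to 4, 1 to 4, 0 to 2 and 0 to 0 of the 10 genes in the order above, and 36 to 271 interaction calls. In the comparisons before the interaction the same fits called 3332 to 4466, 3375 to 4466, 7867 to 8946 and 6823 to 7698 of all genes. DM to DO from *H2-DMa* and *H2-Oa* alone was 8.01 and 3.42 in unstimulated and 6.09 and 3.32 in IFN-β cells (shControl, then sh*Ppargc1b*), and without division by length 10.3, 14.8 and 9.84 in the last 3 groups. The first of these uses only genes that the knockdown comparisons had called, so it is no separate support.

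With library totals the IFN-β direction of listed genes turned: in shControl cells *Cst3* (-0.00), *Ep300* (-0.03), *Itgax* (-0.16), *Marchf1* (-0.04), *Marchf8* (-0.22) and *Nfya* (-0.12), and in sh*Ppargc1b* cells *Ifi30* (-0.20), *Itgax* (-0.18) and *Nfya* (-0.13). The median of all genes was then at -0.27 and -0.22, and each of these values lay above it. With TMM, *Itgax*, *Marchf8* and *Ifi30* in these comparisons and *Nfya* in sh*Ppargc1b* cells had not passed. Genes with few counts (*H2-Oa*, *H2-Ob*) limit what could be seen at this depth.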
